A study of Mus musculus with 6 samples.

Results

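Fc gamma receptors and complement components are 2 linked arms by which a macrophage deals with antibody-coated targets. The genes described here are the activating receptors Fcgr1, Fcgr3 and Fcgr4, the inhibitory receptor Fcgr2b, and the complement genes C1qa, C1qb, C3, Cfb and Cfp. They were found as probes whose gene symbol in the scanner annotation equals one of these names. All 9 genes had a probe, out of 23621 named genes on the array, and they were covered by 10 probes because C3 had 2. The cells were RAW264.7, an established mouse macrophage line, so every sample comes from the same line and no animal variation is measured. Control cells stayed in DMEM medium and treated cells received AEPS, a polysaccharide from the root of Actinidia eriantha, at 50 µg/ml. RNA was taken after 4 h and hybridised to 1-colour Agilent arrays, with 3 labelled samples in each group. The labels do not state whether the samples were grown as separate cultures, and p-values here cover only their spread, which may be technical.

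Fc gamma receptors bind the constant part of IgG. The activating receptors signal through the common gamma chain (Fcer1g), whose tyrosines are phosphorylated by Src-family kinases and then recruit Syk, and this drives phagocytosis and cytokine release. Fcgr2b carries an inhibitory motif that recruits the phosphatase SHIP-1 (Inpp5d) and dampens the same signal. Complement is a cascade of plasma proteins, some of which macrophages also make: C1q starts the classical route on antibody complexes, factor B (Cfb) and properdin (Cfp) serve the alternative route, and C3 is the component on which the routes meet.

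The genes are known here only through short oligonucleotide probes, so what each value stands for depends on where its probe lies. Positions are those of the array design, on build mm9, and the exon annotation of that build was not used here. The probes of Fcgr2b (chr1:172890988-172891047), Fcgr4 (chr1:172959738-172959797) and Fcgr3 (chr1:172984129-172984188) lie within 93.2 kb of each other, and only that of Fcgr4 is on the plus strand. The Fcgr1 probe is at chr3:96086839-96086898. The C1qb (chr4:136436578-136436637) and C1qa (chr4:136452409-136452468) probes lie within 15.9 kb. The C3 probes are at chr17:57343416-57343475 and chr17:57343678-57343737, and the Cfp probe is at chrX:20502742-20502801. The Cfb probe runs from chr17:34993502 to 34993858, so its 60 bases are spread over 357 bases of genome. Each has 60 bases, and 4 of them are shown, for the receptor with a close relative on the array, for the C3 probe that moved less, for the dim gene that rose, and for the C1q chain that could be tested.
Fcgr3 probe: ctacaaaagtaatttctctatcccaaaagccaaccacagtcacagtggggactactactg
C3 second probe: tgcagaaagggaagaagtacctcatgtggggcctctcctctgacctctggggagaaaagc
Cfb probe: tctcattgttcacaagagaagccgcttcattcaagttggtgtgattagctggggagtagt
C1qb probe: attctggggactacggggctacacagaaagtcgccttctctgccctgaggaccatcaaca
Fcgr2b and Fcgr3 encode closely related extracellular domains, and the Fcgr3 probe was not compared with the Fcgr2b transcript, so the Fcgr3 values are uncertain to that extent.

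RefSeq (GRCm38.p6) gave sequence upstream of the transcript start for 7 of the 9 genes. The 250 bases before the start are shown for Fcgr1 (chr3:96293970-96294219, minus strand), which fell, for C3 (chr17:57228137-57228386, minus strand), which rose, and for Fcgr2b (chr1:170976072-170976321, minus strand) and Fcgr4 (chr1:171018676-171018925, plus strand), the inhibitory and an activating receptor with probes close together. Capitals mark matches to 4 short motifs searched on both strands.
Fcgr1: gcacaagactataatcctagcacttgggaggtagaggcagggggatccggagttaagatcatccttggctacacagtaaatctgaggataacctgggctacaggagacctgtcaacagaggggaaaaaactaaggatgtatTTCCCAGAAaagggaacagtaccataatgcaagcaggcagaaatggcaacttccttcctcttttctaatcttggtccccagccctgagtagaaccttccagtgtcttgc
C3: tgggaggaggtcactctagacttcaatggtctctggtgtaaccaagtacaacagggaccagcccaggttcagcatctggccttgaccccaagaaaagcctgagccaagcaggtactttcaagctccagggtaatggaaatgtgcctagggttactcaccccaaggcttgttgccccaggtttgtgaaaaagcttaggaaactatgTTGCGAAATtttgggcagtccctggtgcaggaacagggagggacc
Fcgr2b: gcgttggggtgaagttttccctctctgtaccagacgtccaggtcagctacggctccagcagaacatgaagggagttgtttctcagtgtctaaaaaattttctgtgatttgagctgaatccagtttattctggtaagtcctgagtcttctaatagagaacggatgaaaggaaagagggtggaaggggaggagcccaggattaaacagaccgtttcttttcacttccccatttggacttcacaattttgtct
Fcgr4: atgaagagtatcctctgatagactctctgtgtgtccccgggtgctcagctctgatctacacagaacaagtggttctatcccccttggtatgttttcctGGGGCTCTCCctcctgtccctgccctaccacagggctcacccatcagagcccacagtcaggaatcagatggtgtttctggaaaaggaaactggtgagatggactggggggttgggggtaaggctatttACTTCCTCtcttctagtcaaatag
The letters TTCNNNGAA, the pattern known for STAT dimers, occur in Fcgr1 from 109 to 101 bases before the start and in 7.02% of 32851 such sequences. The letters TTGCNNAAT, a form of the C/EBP site, occur in C3 from 45 to 37 bases before the start and in 2.11% of the sequences. Fcgr4 holds the NF-kB consensus (7.25% of all sequences), which Fcgr3 also holds, and, on the reverse strand, the PU.1 letters GAGGAAGT (2.44%). None of the 4 patterns occurs in the Fcgr2b stretch. These matches describe letters in a fixed window and say nothing of whether a factor binds there.

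The scanner files of replicates 1 and 2 were identical in each group and entered once, so the scanner fit rests on 2 arrays of each group. Each of the 2 slides held 1 control and 1 AEPS array. The authors' table holds 3 distinct columns per group; its columns 1 and 2 rank probes as the 2 scanner arrays do, so the table is not an independent measurement, and the scanner array behind its replicate 3 columns was not analysed here. The scanner array labelled replicate 3 thus corresponds to replicate 2 of the table, and a replicate left out below carries the number of its own source. Between 55.4% and 58.7% of the 59305 spots of an array were well above background. Of 9 macrophage markers 8 were well above background on every array (Cd68, Adgre1, Csf1r, Ptprc, Lyz2, Spi1, Cd14 and Itgam) and Mertk was not. Ptprc, the leukocyte phosphatase CD45, rose by 0.93 (adjusted p = 0.0480) and the other 7 did not pass the test. With the slide as a block Csf1r, the receptor for CSF-1, fell by 0.60 (adjusted p = 0.0370, against 0.112 without it). The authors' table had 4 of the markers rising and 1 falling. Over all features 4.17% rose and 2.94% fell without the block, 13% and 16.9% with it, and 17.1% and 16.4% in the authors' table. Nothing particular to the markers is read from these counts. Of 30 markers of other cell types, 14 were not well above background on any array, among them Ms4a1, Cd3g, Ncr1, Mpo, Col1a1 and Alb, and 10 were above it on every array (Cd79a, Cd79b, Cd3e, Cd4, Prf1, Elane, Camp, Tpsb2, Col1a2 and Serpina1a). Of these Cd79b, a B cell receptor chain, rose by 2.59 (adjusted p = 0.0126). Cd4 fell by 0.55, which passed with the slide as a block (adjusted p = 0.0477, against 0.158 without it). The summed signal of the 5 B cell markers, as a multiple of the 75th percentile of the array, was 0.760 and 0.706 in controls and 1.13 and 0.889 with AEPS, and its part in the results was not tested. In bulk RNA of this kind, fewer cells making a transcript and less of it per cell cannot be told apart.

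The design asks how AEPS changes these transcripts within 4 h. Cfb rose, C3 rose at the 1 of its 2 probes that was brighter over all arrays, and Fcgr1 fell. Fcgr3, Fcgr4 and C1qb did not pass the test and had overlapping values in the authors' table. Fcgr2b was higher and Cfp lower in every AEPS sample than in every control sample, but these smaller differences did not pass the test in the scanner fit without a block. Both passed with the pairing of samples taken into account and in the authors' table of 3 samples per group. With spike-in scaling, which raises most genes, Fcgr2b also passed, while Cfp was no longer lower (0.027). C1qa could not be tested. Values from the scanner arrays are log2 of the signal relative to the 75th percentile of the array, and differences between groups are given on that log2 scale with the moderated standard error and adjusted p of limma, over 25848 features. Of the 8 genes tested 3 passed at an adjusted p of 0.05, 2 upward and 1 downward, where 7.11% of all features passed, 4.17% upward and 2.94% downward. With the slide as a block 5 of the 8 passed, 3 upward and 2 downward, against 29.9% of all features (13% upward and 16.9% downward). Using the authors' values 5 of 8 passed, 3 upward and 2 downward, against 33.4% (17.1% upward and 16.4% downward), and with the replicate block 5 of 8, against 49.8% (23.5% upward and 26.3% downward). By these values 3 of the 8 genes lay wholly higher with AEPS, 2 wholly lower and 3 overlapped, where 48.1% of all features did not overlap (23.4% higher and 24.7% lower). The shares among these genes in the block and table fits therefore stand against a high background, and nothing particular to them is read from it. Scaling to the spike-in probes in place of the 75th percentile moved the median change of named genes from -0.10 to 0.53, so directions below are relative to the bulk of the array. Of named genes past the test 60.1% rose, against 96.8% with spike-in scaling and 49.8% with normexp background correction.

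**Figure D1:**
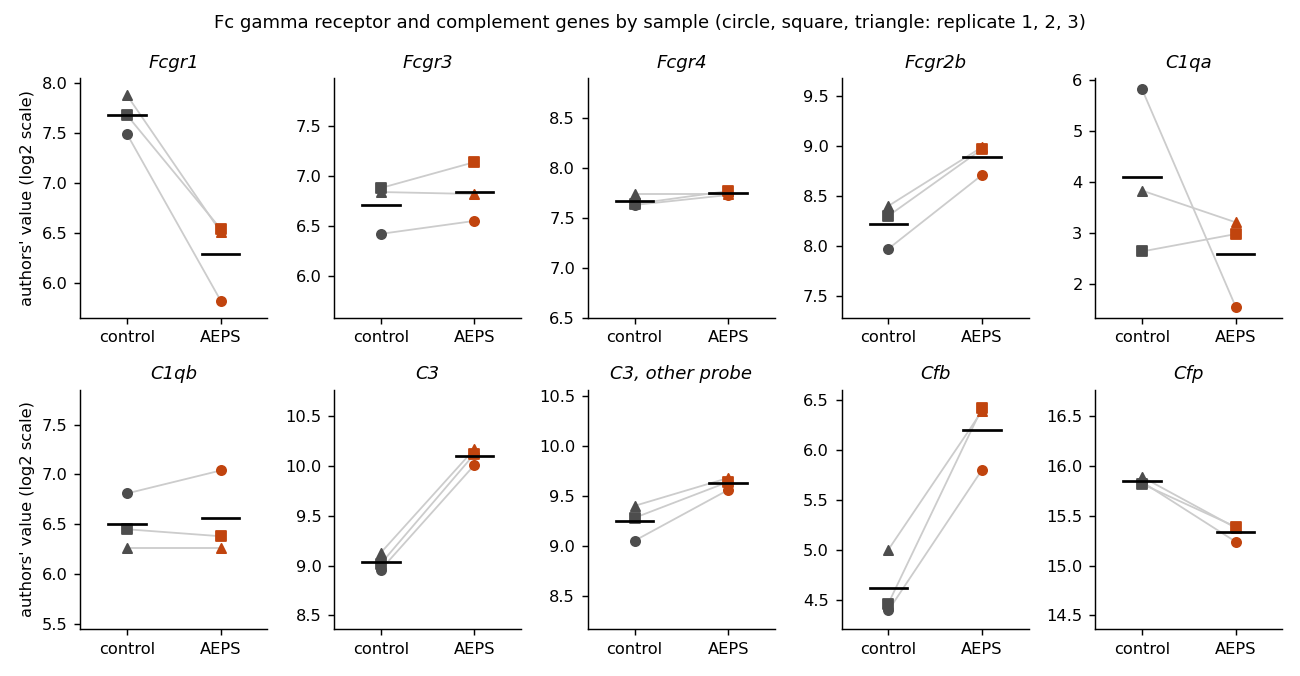
Values of the 9 genes (10 probes) in the authors' table, on a log2 scale, in 3 control (grey) and 3 AEPS (orange) samples; circles, squares and triangles are replicates 1, 2 and 3, grey lines join equal numbers and black bars are group means. The vertical axes differ between panels. Fcgr1 and Cfp lie lower and Fcgr2b, C3 and Cfb higher in all 3 AEPS samples, and the other genes overlap.

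Fcgr1, the high-affinity activating receptor for IgG, was the receptor that fell. Its level was -0.96 and -0.87 in controls and -2.58 and -2.23 with AEPS. The change was -1.49 ± 0.18 (SE, n = 2 arrays per group, adjusted p = 0.0344), that is 2.80-fold lower, with a 95% interval of 1.98 to 3.96-fold. Within the slides it was -1.62 and -1.35. In the authors' table Fcgr1 stood at 7.49, 7.68 and 7.88 in control samples and at 5.82, 6.54 and 6.51 with AEPS. No AEPS sample reached the lowest control, and the difference there was -1.39 (adjusted p = 0.0081). The call was lost under spike-in scaling (-0.85, adjusted p = 0.0621) and quantile normalization (-1.40, adjusted p = 0.0679). Without 1 array of either group in the scanner fit it ranged from -1.66 to -1.31, and its adjusted p was 0.168 without control replicate 1, 0.158 without control replicate 3, 0.0639 without AEPS replicate 1 and 0.0499 without AEPS replicate 3, where the lone array is assumed to vary like the others.

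The other activating receptors showed no change past the test, relative to the bulk of the array. With spike-in scaling, which raises most genes, the change was 0.70 for Fcgr3 (adjusted p = 0.0703) and 0.68 for Fcgr4 (adjusted p = 0.172). Fcgr3, a low-affinity receptor for immune complexes, read -1.91 and -1.69 in controls and -1.89 and -1.57 with AEPS. These ranges overlap, and the change of 0.07 ± 0.19 did not pass the test (adjusted p = 0.811, 95% interval -0.45 to 0.60). Its table values were 6.42, 6.88 and 6.84 in controls and 6.55, 7.14 and 6.82 with AEPS, again overlapping. Fcgr4, an activating receptor with a preference for IgG2 subclasses, read -0.84 and -0.92 in controls and -0.78 and -0.88 with AEPS. The change was 0.05 ± 0.13 (adjusted p = 0.816), and its 95% interval, -0.32 to 0.42, leaves room for moderate changes in either direction. The table gave 7.63, 7.64 and 7.74 against 7.73, 7.77 and 7.74, and the highest control value equals 1 AEPS value and exceeds another.

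Fcgr2b, the inhibitory receptor, was higher with AEPS. The mean of its spots was -0.52 and -0.25 in controls and 0.16 and 0.44 with AEPS. The difference was 0.68 ± 0.19. This did not pass the test without the block (adjusted p = 0.102) and passed with the slide as a block (adjusted p = 0.0349), the differences within slides being 0.68 and 0.69. With spike-in scaling, which raises most genes, it was 1.31 and passed without the block (adjusted p = 0.0333). In the table the gene read 7.97, 8.30 and 8.40 in controls and 8.71, 8.97 and 8.99 with AEPS. The groups did not overlap, and the difference was 0.67 (adjusted p = 0.0201; 0.0051 with the replicate block). The table's call was lost without control replicate 2 (adjusted p = 0.0565), AEPS replicate 2 (0.0728) or AEPS replicate 3 (0.0722).

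**Figure D2:**
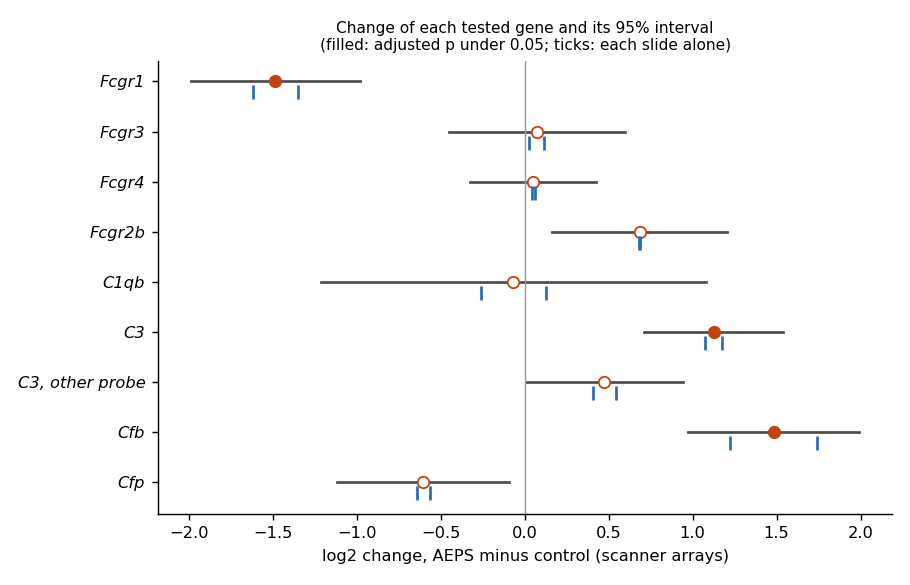
Log2 change from control to AEPS on the scanner arrays (horizontal axis) for the 8 tested genes and for the second C3 probe, taken from the fit over 30381 probes; bars are 95% intervals, blue ticks the differences on each of the 2 slides, and filled points passed an adjusted p of 0.05. Fcgr1 at -1.49, C3 at 1.13 and Cfb at 1.48 are filled, and the intervals of Fcgr3, Fcgr4 and C1qb include 0.

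Changes of the activating receptors were set against the change of Fcgr2b within the same samples of the authors' table. The change of Fcgr1 minus that of Fcgr2b was -2.06 on the log2 scale, with -2.41, -1.81 and -1.96 in the 3 numbered pairs. For Fcgr3 the difference of changes was -0.54, with -0.61, -0.41 and -0.61 in the pairs. For Fcgr4 it was -0.59, with -0.64, -0.54 and -0.59 in the pairs. In each comparison the AEPS samples lay below the control samples, but the comparisons share Fcgr2b, whose own values did not overlap between groups, and so are not separate evidence. The exact two-sided permutation test gave p = 0.1 for each (0.1 after adjustment over the 3), which is the smallest value that 3 against 3 samples allow, so none can pass 0.05. The scanner arrays gave -2.17, -0.61 and -0.63 for Fcgr1, Fcgr3 and Fcgr4, where 2 against 2 arrays allow no p below 0.333. In the table the changes of Fcgr3 and Fcgr4 themselves were 0.12 and 0.08, and that of Fcgr2b was 0.67.

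**Figure D3:**
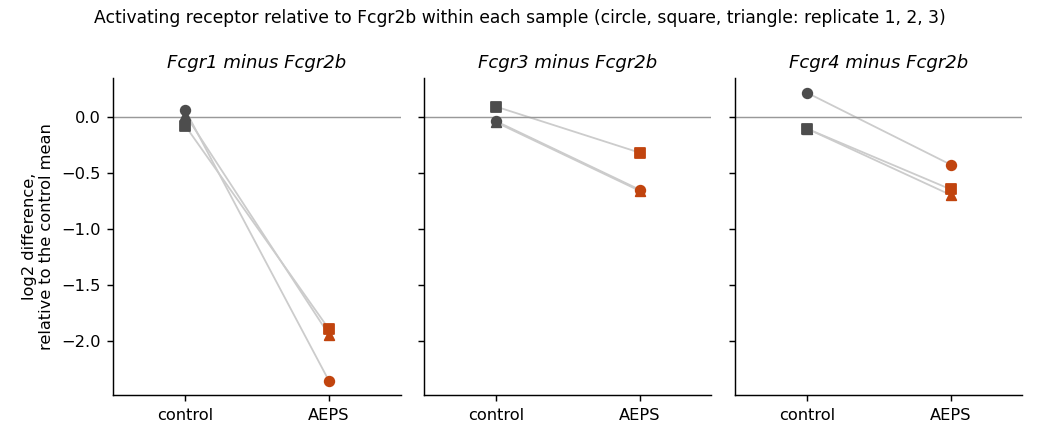
Log2 difference between each activating receptor and Fcgr2b within a sample of the authors' table (vertical axis), with the control mean set to 0; grey points are the 3 control samples, orange points the 3 AEPS samples, and lines join equal replicate numbers. All AEPS points lie below all control points, with mean shifts of -2.06 for Fcgr1, -0.54 for Fcgr3 and -0.59 for Fcgr4.

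Among the complement genes Cfb rose, and C3 rose at the 1 of its 2 probes that was brighter over all arrays. C3, the central component whose cleavage products coat targets and attract leukocytes, read 0.39 and 0.48 in controls and 1.46 and 1.66 with AEPS at its first probe, which was spotted 10 times. The change was 1.13 ± 0.15 (adjusted p = 0.0380), a 2.18-fold higher signal with a 95% interval of 1.64 to 2.91, and it was 1.08 and 1.17 within the slides. The table gave 8.96, 9.02 and 9.13 in controls and 10.01, 10.12 and 10.17 with AEPS (difference 1.06, adjusted p = 0.0008). The first probe stood for C3 because it was the brighter over the arrays of both groups, so its choice used the AEPS values. In controls alone the second probe was brighter (0.62 against 0.44). This second C3 probe, whose sequence is printed above, moved less. It read 0.47 and 0.76 in controls and 1.02 and 1.16 with AEPS, a change of 0.47 ± 0.17 that did not pass (adjusted p = 0.142 over probes). In the table it read 9.05, 9.28 and 9.40 against 9.56, 9.64 and 9.68, without overlap (0.38, adjusted p = 0.0431). The probes went the same way, and with their mean the change of C3 was 0.80 (adjusted p = 0.0648). Leaving out any 1 of the 4 scanner arrays also ended the call, with an adjusted p of 0.205 without control replicate 1, 0.178 without control replicate 3, 0.0710 without AEPS replicate 1 and 0.126 without AEPS replicate 3, while the table kept it without any 1 column.

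Cfb, the protease of the alternative route that joins C3b to cleave more C3, also rose. It was dim but above background on all arrays, at -3.81 and -4.09 in controls and -2.59 and -2.35 with AEPS. The change was 1.48 ± 0.18 (adjusted p = 0.0353), 2.79-fold with a 95% interval of 1.96 to 3.98, and the slides gave 1.22 and 1.74. In the table Cfb stood at 4.39, 4.46 and 5.00 in controls and at 5.80, 6.42 and 6.39 with AEPS, without overlap (1.59, adjusted p = 0.0065). With normexp background correction, which adds an offset of 50 to each spot, the change was 0.32 and did not pass (adjusted p = 0.208), while that of C3 was 1.06 (adjusted p = 0.0091). Its adjusted p was 0.148 without control replicate 1, 0.158 without control replicate 3, 0.0528 without AEPS replicate 1 and 0.0840 without AEPS replicate 3.

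Cfp encodes properdin, which stabilises the alternative convertase that contains Cfb, and its values went the other way. Its log2 level was 7.41 and 7.63 in controls and 6.77 and 7.07 with AEPS. The change of -0.60 ± 0.18 missed the threshold without the block (adjusted p = 0.119) and passed with it (adjusted p = 0.0376). The table read 15.84, 15.82 and 15.89 in controls and 15.24, 15.39 and 15.38 with AEPS (-0.51, adjusted p = 0.0051). The value was 0.027 with spike-in scaling, so the lower level holds relative to other genes of the array and turns with that scaling.

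The C1q chains showed no change that could be measured. C1q is assembled from A, B and C chains, of which only the B chain was above background throughout. C1qb stood at 6.81, 6.45 and 6.26 in the controls of the table and at 7.04, 6.38 and 6.26 with AEPS, so the groups overlap. On the scanner arrays its change was -0.07 ± 0.41 (adjusted p = 0.920), and the 95% interval of -1.21 to 1.08 holds falls of up to 2.32-fold. C1qa was well above background on 1 control array only and was therefore not tested. Its table values were 5.81, 2.64 and 3.83 in controls and 1.56, 2.98 and 3.21 with AEPS, and these ranges overlap. C1qc, the remaining chain, was not well above background on any array.

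The change in these receptors can be set beside the other genes of the same systems, given in 4 lists. Among other Fc receptors and their partners 7 of 11 genes on the array could be tested, of which 1 rose and none fell. Their median change was -0.13 against -0.10 over all named genes. Over all features 4.17% rose and 2.94% fell, and nothing particular to this list is read from its count. The gene of the list that rose was Trim21, a cytosolic antibody receptor, at 1.49 ± 0.20 (adjusted p = 0.0380). Fcer1g, the gamma chain that the activating receptors need for signalling, changed by 0.22 ± 0.21 and did not pass (adjusted p = 0.503). Pigr, which carries polymeric antibody across epithelia, was at -0.13 ± 0.15 (adjusted p = 0.601).

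Of 30 Fc receptor signalling genes, all tested, 5 rose and 2 fell, with a median change of 0.15. With the slide as a block 10 rose and 7 fell. Over all features 4.17% rose and 2.94% fell, and with the block 13% and 16.9%. Src, the kinase that gives the family phosphorylating the receptor tyrosines its name, rose by 1.34 ± 0.14 (adjusted p = 0.0274). The adaptor Lcp2 (SLP-76) rose by 1.45 ± 0.18 (adjusted p = 0.0363) and the ubiquitin ligase Cbl, which limits tyrosine kinase signals, rose by 1.28 ± 0.14 (adjusted p = 0.0292). Blnk, a B cell linker, also rose, by 1.14 ± 0.15 (adjusted p = 0.0376). The inhibitory adaptors Dok3 and Dok2 fell by 1.36 ± 0.16 (adjusted p = 0.0330) and 0.93 ± 0.15 (adjusted p = 0.0485). The brightest genes that did not pass were the small GTPases Rac2 (0.11 ± 0.18, adjusted p = 0.697) and Rac1 (0.20 ± 0.14, adjusted p = 0.381), which steer the actin of the phagocytic cup. Chosen after their values were seen, Syk, the kinase of the activating signal, was at 0.04 ± 0.20 (adjusted p = 0.913). Inpp5d, the phosphatase that Fcgr2b recruits, was at -0.78 ± 0.13 (adjusted p = 0.0521, and 0.0345 with the block). Ptpn6 (SHP-1), another inhibitory phosphatase, was at -0.50 ± 0.17 (adjusted p = 0.146, and 0.0406 with the block). Src was dim (mean -3.46 in controls), and with normexp its change was 0.42 and did not pass (adjusted p = 0.125). The calls of Dok3 and Dok2 were lost with spike-in scaling (adjusted p = 0.0707 and 0.359). The genes of this list that passed in the main fit include an activating kinase, the dim Src, as well as inhibitors, and the list has no single direction.

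Of the other complement components 13 of 22 on the array could be tested, and 1 fell while none rose, with a median change of -0.29. Over all features 4.17% rose and 2.94% fell, and nothing particular to the list is read from its count. The gene that fell was Fcnb, a ficolin that starts the lectin route of complement. It was above background on both control arrays and not well above it on either AEPS array. The fitted change was -3.85 (adjusted p = 0.0236). With AEPS values raised to the lowest signal well above background on the array, the signal was still 5.93-fold lower on this scale. Fcnb was dim in controls as well (mean -2.69). It was tested only because it was well above background on both control arrays, which largely fixes its direction and call. With normexp, which adds an offset of 50 to each spot, the change was -1.36, smaller than that bound. Fcna, a related ficolin, changed by -0.29 ± 0.15 (adjusted p = 0.269) and C1rl, a protease related to C1r, by -0.29 ± 0.15 (adjusted p = 0.248).

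Of complement receptors and regulators 16 of 25 could be tested, and 3 rose while none fell, with a median change of 0.04. With the slide as a block 4 rose and 3 fell. Against all features (4.17% up and 2.94% down, and 13% and 16.9% with the block) nothing particular to the list is read from these counts. Itgax, a chain of the receptor for cleaved C3b, rose by 1.33 ± 0.18 (adjusted p = 0.0395), C3ar1, the receptor for C3a, by 1.28 ± 0.15 (adjusted p = 0.0341), and C5ar1, the receptor for C5a, by 1.05 ± 0.13 (adjusted p = 0.0353). C5ar2, the other C5a receptor, named after its value was seen, was at -0.68 ± 0.16 (adjusted p = 0.0823, and 0.0370 with the block). C1qbp, a binding protein of C1q, was at 0.05 ± 0.17 (adjusted p = 0.869) and Calr (calreticulin), also a binding partner of C1q, at -0.48 ± 0.22 (adjusted p = 0.226, and 0.0422 with the block). Of the 66 genes tested in the 4 lists 12 passed, where 7.11% of all features did. Using the authors' values 32 of the 66 passed, where 33.4% of all features did. Nothing particular to the lists is read from these totals. Most of the scanner calls were lost without any 1 scanner array, in the lists as over all features. Such a fit leaves 1 array in a group, so this loss is not particular to the lists either.

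**Figure D4:**
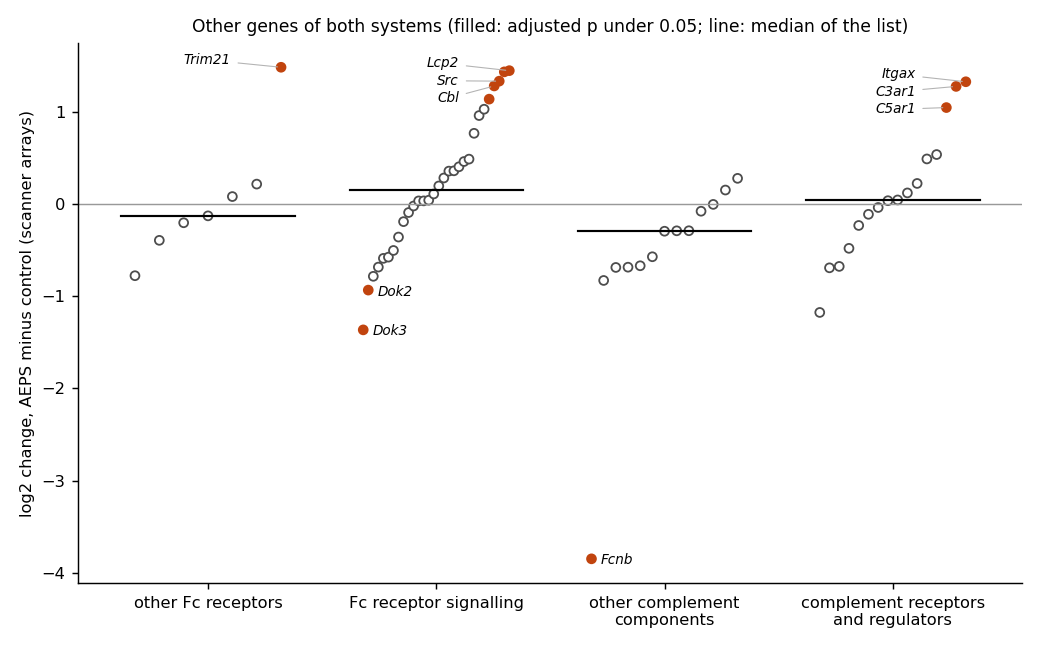
Log2 change from control to AEPS on the scanner arrays (vertical axis) of every tested gene in 4 lists, ordered by value within each list; filled points passed an adjusted p of 0.05 and black lines are list medians (-0.13, 0.15, -0.29 and 0.04). Fcnb was not well above background with AEPS, so its plotted position is a fitted value. With AEPS values raised to the lowest signal well above background, its difference on this scale is 5.93-fold.

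The genes whose 6 table values followed a member most closely were found by Pearson correlation over the 6 columns, as a description; control and AEPS samples are pooled in it, so it mainly follows the difference between groups. For Fcgr1 they were Rhobtb2 (r = 0.998), Arap3 (r = 0.998) and Cd24a (r = 0.997), whose table changes were -0.58, -0.18 and -1.30. For Cfb they were Edrf1 (r = 0.999), A630081D01Rik (r = 0.998) and Yae1d1 (r = 0.998), with changes of 0.76, 1.86 and 0.39.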

How the data were processed

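The members and gene lists were chosen with earlier results of these data known. Spot intensity values in the deposited scanner files were made with Agilent Feature Extraction 10.7.1.1, per the file headers, and are background-subtracted processed signals without scaling between arrays. The authors' deposited value table is on a log2 scale whose columns differ by at most 0.01 when sorted, as after quantile normalization; its exact steps are not given in the sources used here. Flagged outlier spots were set to missing and spots of a probe averaged. The log2 signal was scaled to each array's 75th percentile (401 and 287 signal units for control, 575 and 488 for AEPS). Testing required a probe to be well above background on all arrays of at least 1 group. The tested probe that was brightest over the arrays of both groups stood for a gene, so this choice was not blind to the response. A gene below background in 1 group had to be well above it on every array of the other to be tested, which largely fixes its direction. limma 3.58.1 in R 4.3.3 compared the groups without covariates. The p-values were adjusted by Benjamini-Hochberg over 14979 named genes together with 10869 probes of no name (25848 features). Simulated arrays with known changes were used only to check that the calculation returned their size and sign. Their noise was independent between arrays, without a slide effect, so they do not speak to the error rate of the calls here. Probes were named by accession through RefSeq (26582 of 55681), by the scanner annotation (4818) or left unnamed (24281). Named genes were all 9 members and, in each other list, up to 4 genes past the test in each direction with the largest change and the 2 brightest that did not pass, plus macrophage markers and other markers above background on every array. Syk, Inpp5d, Ptpn6, Blnk and C5ar2 are named outside that rule, and 1 gene within it is not reported. Replicate numbers were checked for pairing: deviations of same-numbered table samples correlated at 0.58, 0.38 and 0.41, all above the bound of 0.1. Differently numbered samples ranged from -0.50 to 0.24, so the bound alone does not single out equal numbers. Arrays of 1 slide correlated at 0.62, a single value for both slides. The block is therefore given beside the main fit where it changes a reported call. The number of arrays limits the precision. Alternatives were another source, block, background correction, scaling, filter, probe summary and leaving out each array; treating every probe as a feature was added after seeing the data.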

Additional observations from a re-analysis of the deposited data

How the results depend on the processing

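Against 3 members, 12 other listed genes and 1838 features past the test, the authors' table gave 5, 32 and 8644, the table with the replicate block 5, 42 and 12879, and the slide as replicate block 5, 26 and 7724. Without the filter on dim probes limma called 0, 0 and 0, although 4, 20 and 7324 had an unadjusted p under 0.05. Spike-in scaling called 19 other listed genes and 4272 features, normexp 4572 features, quantile normalization 3174 features, and every probe as a feature, added after seeing the data, 2804. Leaving out 1 scanner array gave 0 to 1 members, 0 to 1 other listed genes and 7 to 787 features; leaving out 1 column of the table gave 4 to 5, 23 to 28 and 5602 to 7430. Signs turned only for values that had not passed the test. These were C1qb (0.053 in the table with or without the block, 0.065 with quantile normalization, 0.56 with spike-in scaling), Fcgr3 (-0.14 with normexp) and Syk (-0.016 with quantile normalization, -0.12 with the mean of probes). With spike-in scaling they were also Cfp (0.027), Fcna (0.34), Calr (0.15), Ptpn6 (0.13), Pigr (0.50) and C1rl (0.34). Over the fits without 1 sample, of scanner arrays or table, both signs occurred for C1qb (-0.54 to 0.41), Fcgr3 (-0.086 to 0.27), Syk (-0.14 to 0.21), Rac2 (-0.030 to 0.25), C1qbp (-0.11 to 0.20) and Pigr (-0.27 to 0.067). The cause was not tested. Among members the block changed the calls of Fcgr2b and Cfp and no other. C1qa was tested only without the filter (-2.16 ± 1.28, adjusted p = 0.540), where it did not pass.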
